A study of Mus musculus and Homo sapiens with 14 samples.

Results

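Plasma cells of the mouse spleen were compared with plasma cells of the mouse bone marrow in 3 RNA sequencing libraries, out of 14 libraries in the series and 10 from mouse. The comparison was defined by the count columns of these samples and used no measured value to choose them. The 2 splenic libraries, called a and b because their count columns carry the same name, held donor plasma cells of genotype Irf4 flox/+. Their C57BL/6 donors' bone marrow had been given to congenically marked hosts together with uMT bone marrow, which cannot make B cells. The hosts received tamoxifen on days 1, 2, 7 and 8 and the spleens were taken on day 14. The single marrow library held C57BL/6 plasma cells labelled WT. No label says which Cre was used, whether the marrow mice were chimeras or received tamoxifen, or how many animals were pooled in a library. Tissue, Irf4 genotype, tamoxifen and the transplant therefore cannot be told apart in anything that follows. The series used the marrow library as a control, and the difference between the organs was not itself a question that its labels state.

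Plasma cells are the antibody-secreting end stage of the B cell lineage. Newly formed plasma cells in the spleen are often short-lived and leave the cell cycle as they mature, while the bone marrow holds many of the long-lived ones, kept by survival signals from their surroundings. The transcription factors IRF4, BLIMP-1 (Prdm1) and XBP1 set up and maintain the programme, and most of the messenger RNA encodes antibody chains.

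All 3 libraries carried the transcripts that define plasma cells. Syndecan-1 (Sdc1) stood at 2105 and 2102 CPM in the splenic libraries, against 2854 CPM in the marrow library; CPM are counts scaled to library size, here after immunoglobulin genes had been set aside. Xbp1 stood at 9143 and 12332 CPM in spleen and 10998 CPM in marrow, and Slamf7, a surface receptor of plasma cells, at 1098 and 1082 CPM in spleen and 983 CPM in marrow. Pax5, the factor that holds B cell identity, was at 1.75 and 0 CPM in spleen, against 0.753 CPM in marrow and 27.6 CPM in the follicular B cell library. Immunoglobulin and J chain transcripts took 75.5% and 77.2% of splenic counts and 72.0% of marrow counts. The 3 libraries held 21554149 to 27003585 counts in all and 5419720 to 6152898 outside immunoglobulin genes, so 1 count is worth less than 1 CPM.

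The antibody classes differed. Ighm, the IgM heavy chain, made up 17.4% and 16.4% of heavy chain constant counts in the splenic libraries, against 51.4% in marrow. Ighg2c made up 43.0% and 38.8% in spleen and 8.51% in marrow, and all IgG classes together 64.9% and 53.5% in spleen and 33.1% in marrow. The IgG excess of spleen lay in Ighg2c, since Ighg2b stood at 20.3% and 13.9% in spleen and 19.3% in marrow. Ighg3 was at 0.576% and 0.302% in spleen and 3.35% in marrow, and Ighg1 at 0.949% and 0.465% in spleen and 1.92% in marrow.

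Igha separated the splenic libraries from each other as much as from marrow, at 17.5% and 30.1% in spleen and 15.4% in marrow. Lambda chains took 23.4% and 22.6% of light chain counts in spleen, against 5.10% in marrow. Jchain, which joins IgM and IgA units, took 3.42% and 3.81% of all splenic counts and 2.17% of marrow counts. The most abundant heavy chain variable gene was Ighv5-17 in both splenic libraries, with 7.58% and 7.33% of Ighv counts, and Ighv1-26 in marrow, with 10.2%. Exact 95% binomial intervals of these shares are narrow, from 51.3% to 51.4% for Ighm in marrow, and cover counting error only. With 1 marrow library there is no measure of how such shares vary between marrow samples. Reads from near-identical constant genes such as Ighg2b and Ighg2c may be split between them. In whole-library RNA such as this, fewer cells of a class and less RNA per cell cannot be told apart.

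**Figure D1:**
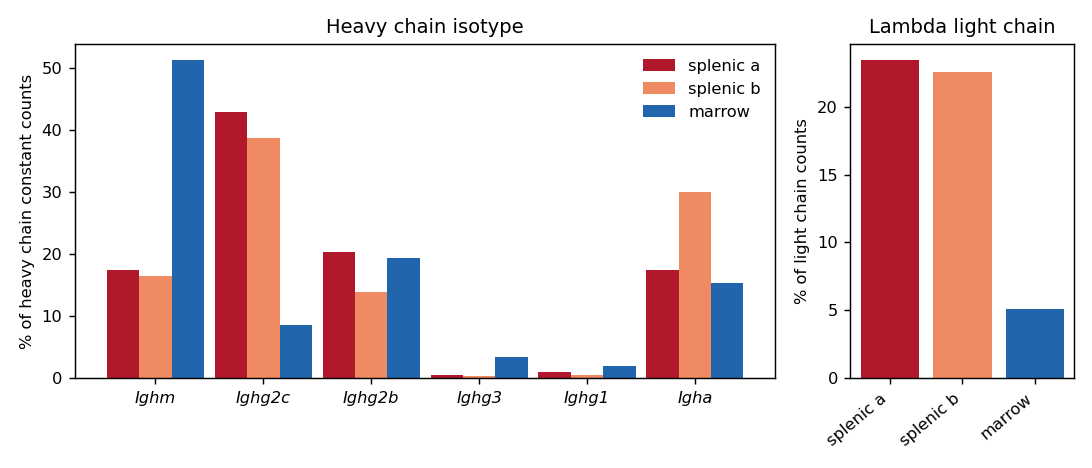
Left, each heavy chain constant gene as a percentage of all heavy chain constant counts in the 2 splenic libraries and the marrow library; right, lambda counts as a percentage of light chain counts. Ighm is the tallest bar of marrow at 51.4%, and Ighg2c the tallest of both splenic libraries at 43.0% and 38.8%.

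Outside immunoglobulin genes, 8837 genes reached 10 CPM in the mean of the splenic pair or in marrow. Of these, 81 (0.917%) were at least 4-fold higher and 190 (2.15%) at least 4-fold lower in both splenic libraries than in marrow, on log2(CPM + 1). At least 2-fold, the counts were 361 (4.09%) higher and 587 (6.64%) lower. Both splenic libraries lay above marrow for 2843 genes (32.2%) and below it for 3117 (35.3%).

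These counts stand beside a wide spread between the splenic libraries. Over the same genes, a and b were themselves 4-fold apart for 771 (8.72%), while a and marrow were 4-fold apart for 5.40% and b and marrow for 11.4%. The median absolute difference was 0.59 between a and b, 0.44 between a and marrow and 0.69 between b and marrow, in log2 units. With library b alone the counts were 190 higher and 840 lower, and with library a alone 218 higher and 314 lower. Of the 190 lower genes, 66 had no count in either splenic library, and of the 81 higher genes, 14 had none in marrow.

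A model across 14239 genes in all 10 mouse libraries (edgeR, quasi-likelihood test) took the spread of the marrow library from the 4 mouse groups of 2. It called 0 genes at an adjusted p under 0.05, the smallest adjusted p being 0.0547, which Apoe shared with other genes. At an unadjusted p under 0.05 it held 259 genes higher (1.82%) and 612 lower (4.30%). DESeq2, on the same libraries, called 51 higher (0.442%) and 146 lower (1.27%) at an adjusted p under 0.05. Differences of single genes are therefore given below as values of 3 libraries, and higher or lower describes those libraries.

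**Figure D2:**
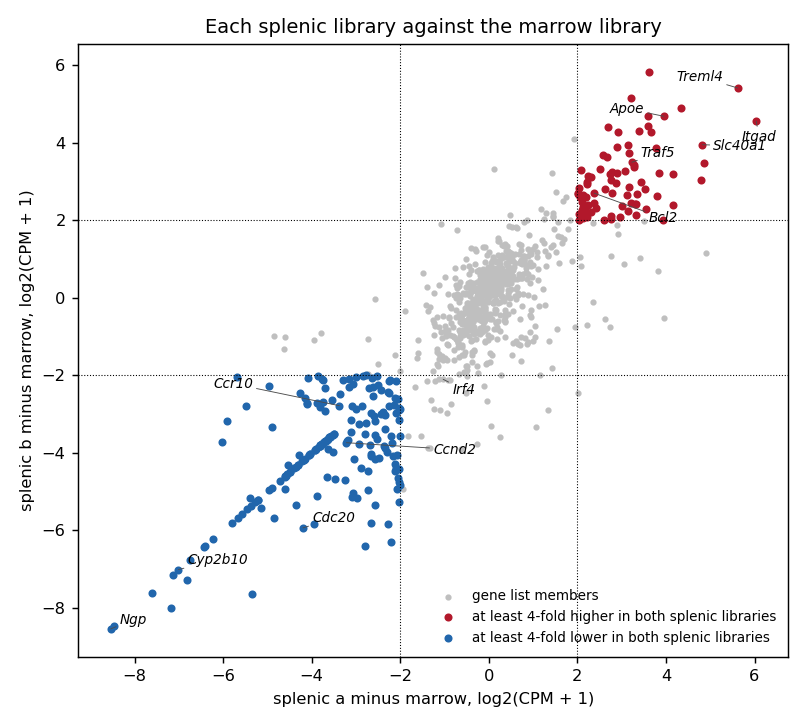
Each point is a gene, with its difference from marrow in splenic library a on the horizontal axis and in splenic library b on the vertical axis, both on log2(CPM + 1). Red and blue points are the 81 and 190 genes at least 4-fold higher or lower in both, dotted lines mark 4-fold, grey points are the other gene list members past the filter, and the blue diagonal holds genes without a count in either splenic library.

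Irf4 itself was lower in the splenic libraries. Its transcript (Entrez 16364, on mm10 chromosome 13 from 30749233 to 30766981) was at 381 and 181 CPM in spleen and 780 CPM in marrow, where counting error alone gives an interval of 756 to 804 CPM. The edgeR log2 difference was -1.47 ± 0.51 (SE), with an adjusted p of 0.588. The splenic cells carry 1 floxed allele and had been exposed to tamoxifen, while the marrow cells are labelled WT. The splenic Irf4 flox/- libraries held 272 and 327 CPM, between the values of a and b.

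Several other regulators of the plasma cell programme were lower in spleen too. Of 18 regulators, Irf4 included, 9 were below marrow in both splenic libraries (35.3% of all genes were) and 3 above it in both (32.2% were). Their median log2 difference was -0.32 in a and -0.96 in b. Pou2af1, a coactivator of octamer-binding factors at immunoglobulin genes, stood at 1008 and 433 CPM in spleen and 1899 CPM in marrow. Prdm1, which encodes BLIMP-1, stood at 188 and 197 CPM in spleen, against 333 CPM in marrow. Bhlha15 (MIST1), a factor of secretory cells, stood at 438 and 233 CPM in spleen and 644 CPM in marrow. All 3 were lower in each splenic library, by less than 4-fold except for Pou2af1 in b.

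Surface and survival genes had no common direction. Of 33 past the filter, 14 were above marrow in both splenic libraries (32.2% of all genes were) and 12 below it in both (35.3% were). Tnfrsf17 (BCMA), the receptor for APRIL that supports plasma cell survival, stood at 184 and 203 CPM in spleen and 368 CPM in marrow. Tnfrsf13b (TACI), a receptor for the same ligand and for BAFF, stood at 651 and 713 CPM in spleen and 1026 CPM in marrow. Cd28 stood at 170 and 237 CPM in spleen, on either side of 201 CPM in marrow. At least 4-fold, 1 gene of the list was higher (0.917% of all genes were) and 3 were lower (2.15% were).

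The gene that was 4-fold higher was Cd93 (Entrez 17064, on mm10 chromosome 2 from 148436651 to 148443535), a lectin-like receptor carried by early B cell precursors and by plasma cells. It stood at 497 and 491 CPM in spleen and 110 CPM in marrow, with an edgeR log2 difference of 2.17 ± 0.59 (SE), an adjusted p of 0.378 in edgeR and one of 0.0194 in DESeq2. The splenic libraries differed little from each other. Among the lower genes, the inhibitory receptor Pdcd1 (PD-1) had no count in either splenic library, against 20.1 CPM in marrow, and was at least 72.2-fold lower by a floor of 3 counts over the splenic pair. Tigit, another inhibitory receptor, stood at 0 and 5.50 CPM in spleen and 30.5 CPM in marrow. The splenic Irf4 flox/- libraries held 17.5 and 44.4 CPM of Pdcd1, on either side of marrow. They held 11.6 and 9.13 CPM of Tigit, below marrow. Absence of Pdcd1 was thus not shared by all splenic plasma cell libraries. Ly6c1 stood at 53.2 and 44.7 CPM in spleen and 20.5 CPM in marrow, though reads of its near-identical neighbour Ly6c2 may be split between the genes.

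Genes that place plasma cells in tissue differed in both directions. Ccr10 (Entrez 12777, on mm10 chromosome 11 from 101172998 to 101175443), the receptor for CCL27 and CCL28 that draws IgA plasma cells to mucosal surfaces, stood at 16.2 and 24.9 CPM in spleen and 177 CPM in marrow. Counting error alone gives the marrow value an interval of 166 to 189 CPM. The edgeR log2 difference was -3.11 ± 0.58 (SE), with an adjusted p of 0.172 in edgeR and of 0.000456 in DESeq2. Ccr9, the receptor for the gut chemokine CCL25, stood at 7.01 and 0 CPM in spleen and 29.7 CPM in marrow. Igha shares were not lower in spleen than in marrow, as given above.

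The sphingosine phosphate receptor S1pr4 stood at 28.05 and 66.8 CPM in spleen and 9.22 CPM in marrow. Gpr183 (EBI2), which guides B cells by oxysterols, stood at 35.1 and 33.0 CPM in spleen and 12.2 CPM in marrow. Cxcr4, the receptor for the marrow chemokine CXCL12, stood at 56.1 and 14.4 CPM in spleen, against 102 CPM in marrow, so both splenic libraries were lower but differed between themselves about as much. Cxcr3, which responds to interferon-induced chemokines, stood at 148 and 186 CPM in spleen and 86.9 CPM in marrow. Of the 17 homing receptors past the filter, 5 were at least 2-fold higher (4.09% of all genes were) and 3 at least 2-fold lower (6.64% were). Among 26 adhesion genes past the filter the counts were 3 and 3, beside the same shares. Icam1, a ligand of the integrin LFA-1, stood at 108 and 84.5 CPM in spleen and 235 CPM in marrow. Vcam1, a ligand of the integrin VLA-4, stood at 140 and 42.6 CPM in spleen and 19.8 CPM in marrow, and is also a gene of splenic macrophages, whose marker sums follow below.

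Many genes of mitosis were lower in the splenic libraries. Of 32 listed genes of mitosis, 19 passed the filter. Of these, 13 were at least 2-fold lower in both splenic libraries (6.64% of all genes were) and 5 at least 4-fold lower (2.15% were). At least 2-fold higher in both were 0 (4.09% were). The median log2 difference was -2.58 in a and -1.41 in b, against -0.01 and -0.06 over all genes past the filter. Summed over the list, they took 183 CPM in each splenic flox/+ library and 547 CPM in marrow. The splenic Irf4 flox/- libraries lay between, at 356 and 373 CPM. Most had low counts, so the filter was often met through marrow alone.

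Cdc20, the activator of the anaphase-promoting complex, stood at 2.34 and 0 CPM in spleen and 60.2 CPM in marrow (edgeR adjusted p = 0.122, DESeq2 adjusted p = 5.93e-10). Top2a, which untangles chromosomes, stood at 4.09 and 0.71 CPM in spleen and 29.3 CPM in marrow. Ube2c, the ubiquitin-conjugating partner of the same complex, stood at 1.17 and 5.68 CPM in spleen and 28.03 CPM in marrow. Aurkb, a spindle kinase, stood at 4.09 and 7.81 CPM in spleen and 28.03 CPM in marrow. In each of these, both splenic libraries were below marrow. The splenic Irf4 flox/- libraries held 21.7 and 21.0 CPM of Cdc20 and 17.6 and 16.8 CPM of Top2a. They held 11.3 and 4.51 CPM of Ube2c and 17.3 and 15.6 CPM of Aurkb. All these values were below marrow, but those of Cdc20, Top2a and Aurkb were above both flox/+ libraries. The very low Cdc20 and Top2a levels were thus not shared by all splenic plasma cell libraries. Among 25 genes of DNA replication past the filter, 5 were at least 2-fold lower (6.64% of all genes were) and 0 at least 2-fold higher (4.09% were). Rrm2, a subunit of ribonucleotide reductase, stood at 14.2 and 23.1 CPM in spleen, against 65.7 CPM in marrow.

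Of 13 genes of G1 control past the filter, 5 were below marrow in both splenic libraries (35.3% of all genes were), 3 above it in both (32.2% were) and 1 at least 4-fold lower (2.15% were). That gene was the D-type cyclin Ccnd2, whose product drives cells through G1. It (Entrez 12444, on mm10 chromosome 6 from 127125162 to 127152188) was at 101 and 70.0 CPM in spleen and 947 CPM in marrow, where the interval from counting error alone is 921 to 973 CPM. The edgeR log2 difference was -3.47 ± 0.45 (SE), with an adjusted p of 0.0677 in edgeR and of 1.34e-08 in DESeq2. Ccnd3 stood at 102 and 103 CPM in spleen and 212 CPM in marrow. Cdkn1a (p21), an inhibitor of cyclin-dependent kinases, stood at 45.8 and 56.1 CPM in spleen and 21.6 CPM in marrow. The marrow library also held transcripts of immature granulocytes, which divide, and their part in the cell cycle values was not tested.

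Those granulocyte transcripts set the marrow library apart. The 16 neutrophil markers summed to 7.79 and 0 CPM in the splenic libraries and 1920 CPM in marrow, and 15 of the 16 were lower in both splenic libraries. Ngp stood at 0 and 0 CPM in spleen and 372 CPM in marrow, Mpo at 0 and 0 CPM in spleen and 351 CPM in marrow, and S100a9 at 0.779 and 0 CPM in spleen and 257 CPM in marrow. Ngp and Mpo belong to granule-building precursors. In splenic library b all 16 markers were at 0, and in library a 12 were.

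Macrophage transcripts ran the other way in part. The 18 macrophage markers summed to 1669 CPM in a and 672 CPM in b, against 685 CPM in marrow, and 10 of the 18 were higher in both splenic libraries. Slc40a1, the iron exporter of macrophages that recycle red cells, stood at 283 and 154 CPM in spleen and 9.03 CPM in marrow. Lyz2, shared by macrophages and granulocytes, stood at 121 and 50.1 CPM in spleen and 222 CPM in marrow. Csf1r, the receptor for the macrophage growth factor, stood at 225 and 25.04 CPM in spleen and 15.1 CPM in marrow.

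The other marker lists differed in size and direction. Red cell markers summed to 111 and 17.9 CPM in spleen and 19.0 CPM in marrow, T cell markers to 90.8 and 194 CPM in spleen and 144 CPM in marrow, and NK cell markers to 31.4 and 45.5 CPM in spleen and 45.3 CPM in marrow. Library a therefore stood above b in macrophage and red cell transcripts. The eosinophil list summed to 2645 and 3179 CPM in spleen and 1888 CPM in marrow, nearly all of it Prg2, with 2638 and 3177 CPM in spleen and 1873 CPM in marrow. The B cell precursor list summed to 570 and 573 CPM in spleen and 213 CPM in marrow, most of it Cd93. Dendritic cell markers summed to 2828 and 2767 CPM in spleen and 3463 CPM in marrow, mainly Ly6d and Tcf4, and stem cell markers to 4566 and 3623 CPM in spleen and 3446 CPM in marrow, mainly Ly6a. Stromal markers summed to 119 and 75.6 CPM in spleen and 59.8 CPM in marrow, and megakaryocyte markers to 8.18 and 3.20 CPM in spleen and 1.51 CPM in marrow. Xist, from the inactive X chromosome, stood at 79.9 and 2.84 CPM in spleen and 37.4 CPM in marrow, and the Y-linked Ddx3y at 0 and 0 CPM in spleen and 4.70 CPM in marrow. Of the genes at least 4-fold apart, 5 of the 81 higher and 15 of the 190 lower were on a marker list. The share of all genes past the filter that were on a marker list was not counted. The lists are short and leave out other genes of these cells, so the 2 counts do not measure the part of other cells.

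**Figure D3:**
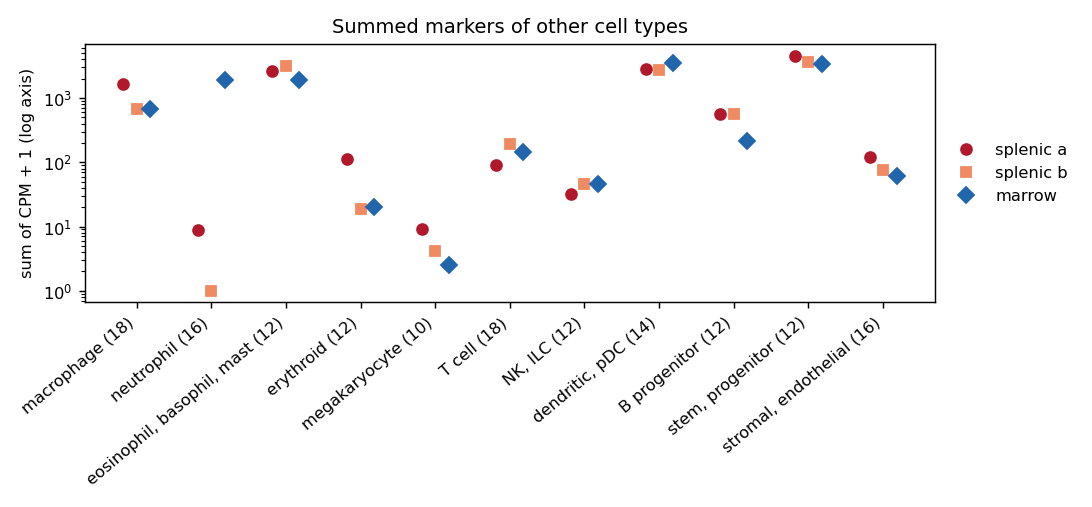
Summed CPM of the marker list of each other cell type, plus 1, on a log axis, in the 2 splenic libraries and the marrow library, with the number of listed genes in brackets. The neutrophil sum is 7.79 and 0 CPM in spleen against 1920 CPM in marrow, the widest gap of the 11 lists drawn.

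Several of the genes that differed most are known from these other cells. Of the 12 lower genes at the head of the ranking, all without a count in either splenic library, Cd177 (83.5 CPM in marrow), Chil3 (50.04 CPM), Hp (40.6 CPM) and Itgam (36.3 CPM) are genes of granulocytes or their precursors. The others were Cyp2b10, a cytochrome P450, at 128 CPM in marrow, the semaphorin Sema3f at 85.0 CPM and the semaphorin receptor Nrp2 at 74.1 CPM. Cp (ceruloplasmin) stood at 54.9 CPM in marrow, Csgalnact1, an enzyme of chondroitin sulfate synthesis, at 46.5 CPM, and Csn3 (kappa casein) at 43.1 CPM. Tmem255a stood at 37.6 CPM and Nox1, an NADPH oxidase, at 36.1 CPM in marrow. By the floor of 3 counts, which covers counting error only, these 12 were at least 130-fold to 459-fold lower in the 2 splenic Irf4 flox/+ libraries. The splenic Irf4 flox/- libraries were also at 0 CPM for Cyp2b10, Sema3f and Cd177. They held 9.89 and 8.72 CPM of Itgam, 8.56 and 9.03 CPM of Nox1, and 6.01 and 7.69 CPM of Nrp2. For Hp they held 5.30 and 4.21 CPM, and all their values for the 12 were below marrow. The edgeR adjusted p was 0.0677 for Nox1, 0.122 for Csn3 and 0.162 for Nrp2, and the DESeq2 adjusted p was 2.22e-06 for Nox1 and 0.000138 for Nrp2. For Cyp2b10 and Sema3f, DESeq2 gave 0.509 and 0.568.

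On the higher side, Treml4 stood at 48.1 and 41.6 CPM in spleen, Itgad at 64.7 and 22.6 CPM and Pla2g2d at 19.1 and 28.8 CPM, all at 0 in marrow. These are genes of splenic macrophages and dendritic cells, and the floor gives them at least 79.4-, 77.3- and 42.4-fold. Apoe (Entrez 11816, on mm10 chromosome 7 from 19696244 to 19701310), a lipid carrier that macrophages make in quantity, stood at 3909 and 6474 CPM in spleen and 252 CPM in marrow. Its edgeR log2 difference was 4.37 ± 0.50 (SE), with an adjusted p of 0.0547 in edgeR and of 9.71e-20 in DESeq2. Apoe was higher in b than in a, while the macrophage marker sum was higher in a. The splenic Irf4 flox/- libraries held 21719 and 15815 CPM of Apoe and 2478 and 346 CPM of Slc40a1, above both flox/+ libraries. The part of macrophage transcripts in Treml4, Itgad, Pla2g2d and Apoe was not tested.

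The remaining genes at the head of the higher ranking included several of lymphocytes. Ltb, which encodes lymphotoxin beta, stood at 507 and 638 CPM in spleen and 67.7 CPM in marrow (edgeR adjusted p = 0.127, DESeq2 adjusted p = 1.2e-07). Traf5, an adaptor of TNF receptors, stood at 125 and 150 CPM in spleen and 12.4 CPM in marrow (edgeR adjusted p = 0.127, DESeq2 adjusted p = 1.36e-07). Srpk3, a kinase of splicing factors, stood at 11.3 and 55.8 CPM in spleen and 0 CPM in marrow. Colq stood at 24.9 and 27.7 CPM in spleen and 1.69 CPM in marrow, and Syndig1l at 19.7 and 29.8 CPM in spleen and 1.32 CPM in marrow. Tgtp2, an interferon-induced GTPase with a near-identical neighbour, stood at 11.7 and 47.8 CPM in spleen and 0.376 CPM in marrow, where it rested on 2 counts. The follicular B cell library held 2521 CPM of Ltb, 232 CPM of Traf5 and 252 CPM of Srpk3, above both splenic libraries. It held 47.5 CPM of Tgtp2, 9.70 CPM of Colq and 0 CPM of Syndig1l. The part of B cell transcripts in these values was not tested.

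Several interferon-stimulated genes were higher in spleen. Of 23 members past the filter, 10 were at least 2-fold higher in both splenic libraries (4.09% of all genes were). At least 4-fold higher were 4 (0.917% were), and 0 were at least 2-fold lower (6.64% were). The median log2 difference was 1.51 in a and 0.88 in b. Some members, among them Usp18, Oasl1, Oas1a and Isg15, passed the filter through spleen alone, so the count favours genes high there. Usp18, which removes ISG15 from proteins, stood at 39.9 and 62.0 CPM in spleen and 2.26 CPM in marrow. Ifi27l2a stood at 468 and 535 CPM in spleen and 54.9 CPM in marrow (edgeR adjusted p = 0.194, DESeq2 adjusted p = 8.32e-06). Oasl1 stood at 12.1 and 29.1 CPM in spleen and 2.07 CPM in marrow. Irf7, which amplifies the response, stood at 197 and 196 CPM in spleen and 56.6 CPM in marrow.

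Irf9, a DNA-binding factor of the interferon response, stood at 197 and 156 CPM in spleen and 68.9 CPM in marrow. The list was not uniform. Bst2 stood at 337 and 327 CPM in spleen and 247 CPM in marrow, Zbp1 at 245 and 229 CPM in spleen and 247 CPM in marrow, and Ddx58 (RIG-I) at 107 and 67.3 CPM in spleen and 163 CPM in marrow. Macrophages express many of these genes too; 10 of their 18 markers were higher in both splenic libraries, and their part in the list was not tested.

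Interferon signals act through promoter elements built of GAAA repeats. Isg15, which encodes the ubiquitin-like modifier, stood at 21.8 and 19.2 CPM in spleen and 6.02 CPM in marrow, and Oas1a, a sensor enzyme of double-stranded RNA with near-identical paralogs, at 11.1 and 15.6 CPM in spleen and 0.753 CPM in marrow. Their promoters are printed because they hold a motif of GAAA followed, after any 2 bases, by GAAA, searched on both strands and shown in capitals, including overlapping matches. The windows run from 250 bases before to 50 after the annotated start, 5′ to 3′ on the gene's strand, from RefSeq on GRCm38.p6.
Isg15 (chr4:156200769-156201068, minus strand): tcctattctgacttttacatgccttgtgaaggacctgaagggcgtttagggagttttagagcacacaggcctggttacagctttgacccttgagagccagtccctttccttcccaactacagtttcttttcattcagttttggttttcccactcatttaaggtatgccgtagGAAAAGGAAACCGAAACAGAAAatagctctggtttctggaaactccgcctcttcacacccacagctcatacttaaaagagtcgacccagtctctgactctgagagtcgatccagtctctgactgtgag
Oas1a (chr5:120907476-120907775, minus strand): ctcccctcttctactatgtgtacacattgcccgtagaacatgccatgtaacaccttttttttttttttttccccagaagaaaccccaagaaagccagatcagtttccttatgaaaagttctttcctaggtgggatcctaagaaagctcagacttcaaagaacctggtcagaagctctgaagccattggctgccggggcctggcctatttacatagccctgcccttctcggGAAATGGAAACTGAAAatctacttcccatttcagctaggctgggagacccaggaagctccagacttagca
The motif was in the window of 3.99% of 27025 genes and of 15 of 23 interferon list members with an entry. Among the 10 members at least 2-fold higher in spleen, 7 had an entry, and 2 of the 7 held the motif, those printed here.

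The BCL2 family sets the threshold for apoptosis. Protective Bcl2 and the killing members Bcl2l11, Bmf and Bad were higher in both splenic libraries, while protective Mcl1 was lower in both. Bcl2 (Entrez 12043, on mm10 chromosome 1 from 106538176 to 106714290) was at 502 and 625 CPM in spleen and 95.6 CPM in marrow. The edgeR log2 difference was 2.56 ± 0.49 (SE), with an adjusted p of 0.191 in edgeR and of 2.49e-05 in DESeq2. Bcl2l11 (BIM), a killer that BCL2 holds in check, stood at 293 and 144 CPM in spleen and 38.4 CPM in marrow. The related Bmf stood at 52.2 and 21.5 CPM in spleen and 11.7 CPM in marrow, and Bad at 49.1 and 43.9 CPM in spleen and 28.2 CPM in marrow. Mcl1, on which plasma cells depend, stood at 659 and 409 CPM in spleen and 743 CPM in marrow. Of 12 members past the filter, 8 were above marrow in both splenic libraries (32.2% of all genes were). Below it in both were 2 (35.3% were), and 3 of the 12 were at least 2-fold higher (4.09% were). The Bcl2 levels of the splenic Irf4 flox/- libraries, 420 and 475 CPM, were likewise above marrow, and the follicular B cell library held 75.3 CPM.

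Genes of the NF-kB pathway were mostly lower in spleen. Of 21 subunits and feedback genes past the filter, 15 were below marrow in both splenic libraries (35.3% of all genes were). Above it in both was 1 (32.2% were). At least 2-fold, 5 were lower (6.64% were) and 0 higher (4.09% were). Nfkb2, the subunit of the alternative pathway, stood at 131 and 86.1 CPM in spleen and 292 CPM in marrow. Its partner Relb stood at 76.3 and 82.4 CPM in spleen and 146 CPM in marrow. Bcl3, a nuclear cofactor, stood at 27.1 and 17.2 CPM in spleen and 88.4 CPM in marrow. Traf3, which restrains the alternative pathway, stood at 26.9 and 7.99 CPM in spleen and 65.3 CPM in marrow. Genes of this pathway are also active in granulocytes, whose markers were higher in marrow, and the part of those cells was not tested.

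**Figure D4:**
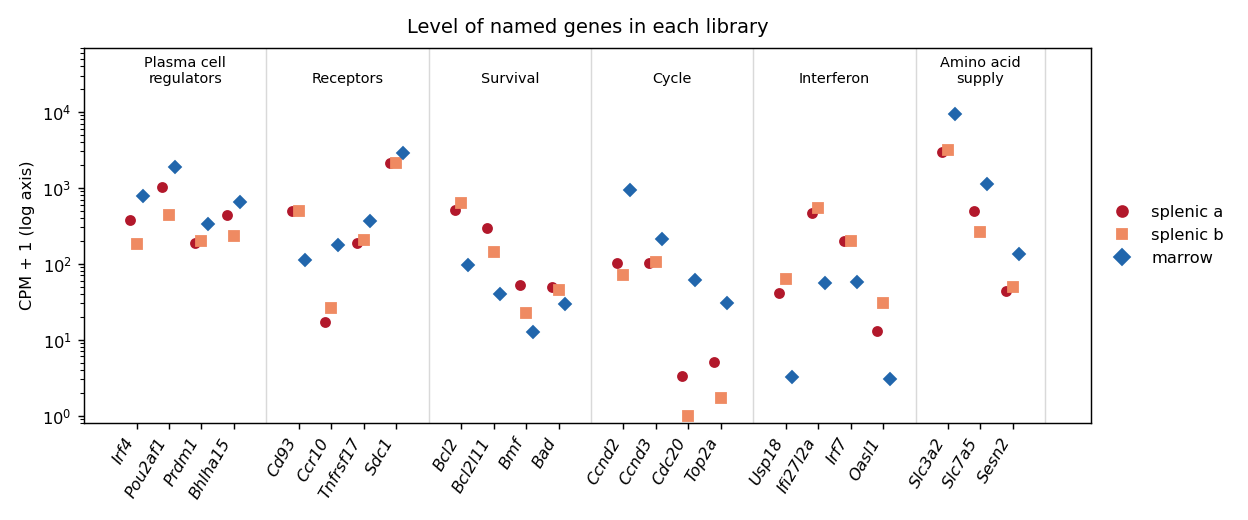
CPM plus 1 on a log axis for 23 genes in the 2 splenic libraries (circles and squares) and the marrow library (diamonds), grouped by role. Cd93, Bcl2 and the 4 interferon genes lie above marrow in both splenic libraries, while Irf4, Ccr10, Ccnd2, Cdc20 and Slc3a2 lie below it.

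Of 22 nutrient transporters past the filter, 13 were below marrow in both splenic libraries (35.3% of all genes were), 2 above it in both (32.2% were), 4 at least 2-fold lower (6.64% were) and 1 at least 2-fold higher (4.09% were). Slc3a2 (CD98 heavy chain) stood at 2989 and 3164 CPM in spleen and 9276 CPM in marrow. Its transport partner Slc7a5 stood at 486 and 257 CPM in spleen and 1134 CPM in marrow. Summed over 25 nutrient transporters, the splenic libraries held 4927 and 5001 CPM and marrow 12218 CPM, and Slc3a2 made up most of each sum. The ATF4 response answers amino acid shortage and ER stress. Of 27 of its genes, 18 were below marrow in both splenic libraries (35.3% of all genes were). Above it in both were 3 (32.2% were). The median log2 difference was -0.48 in a and -0.49 in b. Sesn2, a leucine sensor, stood at 42.7 and 47.9 CPM in spleen and 131 CPM in marrow, while Ddit4, an inhibitor of mTORC1, stood at 16.4 and 76.9 CPM in spleen and 3.57 CPM in marrow. The related Sesn1 stood at 198 and 169 CPM in spleen, against 78.1 CPM in marrow.

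Genes of the secretory machinery mostly lay within 2-fold of marrow. Of 37 ER chaperone and quality control genes, 20 were below marrow in both splenic libraries (35.3% of all genes were). Above it in both were 9 (32.2% were), and 2 of the 37 were at least 2-fold lower (6.64% were). The protein disulfide isomerase Txndc5 stood at 9300 and 6833 CPM in spleen and 20388 CPM in marrow. Sel1l, of ER-associated degradation, stood at 3116 and 2083 CPM in spleen and 5053 CPM in marrow. Hspa5 (BiP), the major ER chaperone, stood at 5441 and 7118 CPM in spleen and 4640 CPM in marrow. Among 49 genes of translocation and vesicle transport, 26 were below marrow in both splenic libraries (35.3% of all genes were). Another 11 were above it in both (32.2% were), and none of the 49 was at least 2-fold away in both.

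Ribosomal protein genes and nuclear genes of the respiratory chain lay slightly above marrow. Of 52 ribosomal protein genes past the filter, 36 were higher in both splenic libraries (32.2% of all genes were). Lower in both were 4 (35.3% were). The median log2 difference was 0.46 in a and 0.49 in b. Of 70 nuclear genes of oxidative phosphorylation, 42 were higher in both (32.2% of all genes were) and 6 lower in both (35.3% were). Their medians were 0.10 in a and 0.63 in b. Rps19 stood at 115 and 123 CPM in spleen and 53.8 CPM in marrow, and Atp5e at 187 and 214 CPM in spleen and 100.3 CPM in marrow. Mitochondrially encoded genes gave no common direction, with medians of 0.93 in a and -1.06 in b and 0 of 10 on the same side of marrow in both.

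Immediate-early genes, which respond within minutes to stimulation and to cell handling, also separated the splenic libraries. Of 23 past the filter, 7 were at least 2-fold higher in both (4.09% of all genes were) and 0 at least 2-fold lower (6.64% were). The median log2 difference was 0.20 in a and 1.54 in b. Jun stood at 1073 and 3492 CPM in spleen, on either side of 1430 CPM in marrow, and Fos at 1220 and 3010 CPM in spleen and 854 CPM in marrow. Btg2, an antiproliferative gene, differed less between a and b, at 571 and 485 CPM in spleen and 180 CPM in marrow. Btg1 stood at 67.0 and 123 CPM in spleen and 19.4 CPM in marrow, and Dusp1, a phosphatase of MAP kinases, at 220 and 763 CPM in spleen and 81.1 CPM in marrow.

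B cell genes were not uniformly higher in spleen. Of 31 B cell identity genes past the filter, 16 were above marrow in both splenic libraries (32.2% of all genes were). Below it in both were 10 (35.3% were), and the median log2 difference was 0.11 in a and 0.16 in b. At least 4-fold, 2 of the 31 were higher (0.917% of all genes were) and 0 lower (2.15% were). Fcer2a (CD23) stood at 8.57 and 15.8 CPM in spleen and 0.941 CPM in marrow, and passed the filter through spleen alone. The follicular B cell library held 1687 CPM of Fcer2a. Cd22, an inhibitory lectin of the B cell receptor, stood at 123 and 163 CPM in spleen and 25.96 CPM in marrow, but the follicular B cell library held 2152 CPM and the edgeR adjusted p was 0.920. Ms4a1 (CD20) stood at 157 and 149 CPM in spleen and 141 CPM in marrow, and Cd40 at 10.7 and 1.07 CPM in spleen and 29.3 CPM in marrow. Of 16 genes of MHC class II presentation, 10 were above marrow in both splenic libraries (32.2% of all genes were) and 3 below it in both (35.3% were). H2-Ob, part of the complex that restrains peptide loading, stood at 230 and 395 CPM in spleen and 96.3 CPM in marrow, whereas the invariant chain Cd74 stood at 30567 and 29183 CPM in spleen and 41463 CPM in marrow.

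The other lists held few large differences. In the p53, MYC and ribosome biogenesis, cholesterol, heat shock and proteasome lists, 0 members were 4-fold apart in either direction. Of all genes, 0.917% were at least 4-fold higher and 2.15% at least 4-fold lower. Sesn1 and Cdkn1a made up the 2 of 15 p53 targets at least 2-fold higher (4.09% of all genes were). Sesn2 was the 1 at least 2-fold lower (6.64% were). In the glycolysis list, Pfkfb3 stood at 24.7 and 28.1 CPM in spleen and 6.21 CPM in marrow, and Aldoc at 57.1 and 54.0 CPM in spleen and 21.1 CPM in marrow, while 10 of 17 members were below marrow in both (35.3% of all genes were) and 4 above it in both (32.2% were). Of 36 proteasome genes, 17 were above marrow in both splenic libraries (32.2% of all genes were) and 6 below it in both (35.3% were). Of 30 autophagy and lysosome genes, 14 were below marrow in both splenic libraries (35.3% of all genes were). Above it in both were 9 (32.2% were), and 1 of the 30 was at least 2-fold lower (6.64% were). Of 14 HIF targets, 6 were below and 3 above in both, beside the same shares. Vegfa, a HIF target, stood at 20.6 and 11.7 CPM in spleen and 55.7 CPM in marrow.

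**Figure D5:**
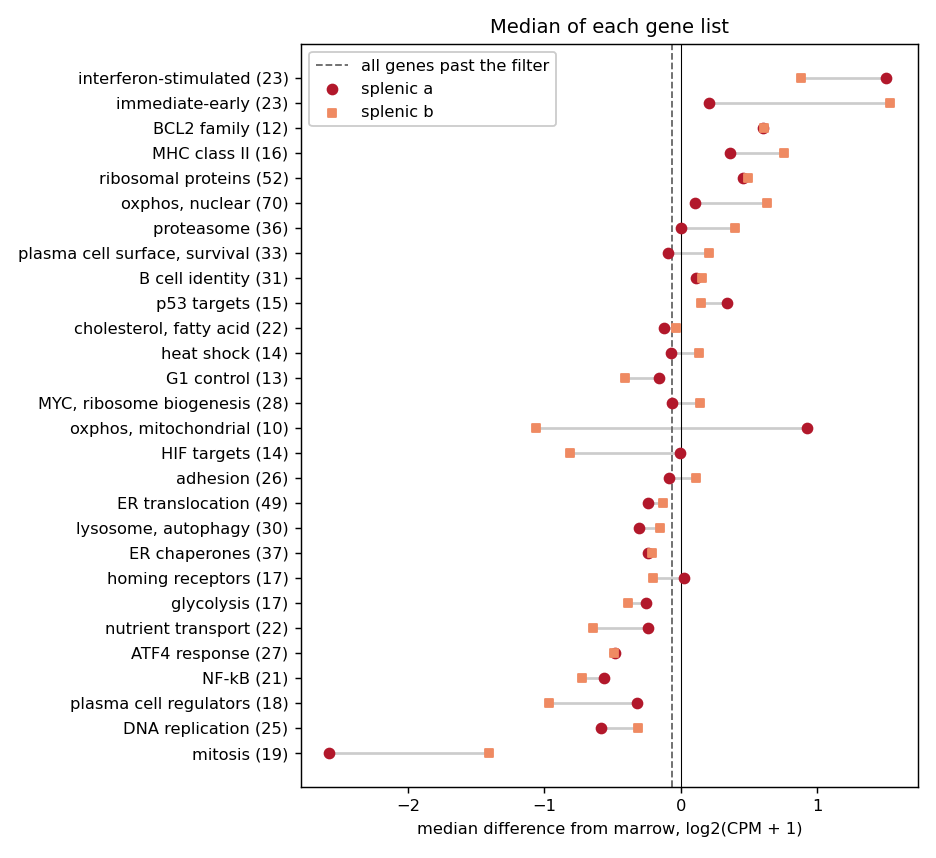
Median difference from marrow on log2(CPM + 1) of each of 28 gene lists in splenic library a (circles) and splenic library b (squares), with the number of genes past the filter in brackets and a dashed line at the median of all genes. Lists run down the page by the median of the splenic mean, from interferon-stimulated genes (1.51 in a and 0.88 in b) to mitosis (-2.58 in a and -1.41 in b), and the 2 libraries lie farthest apart for mitochondrially encoded genes.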

How the data were processed

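Per the labels' protocols, RNA came off a column kit and cDNA went into Nextera libraries, which do not mark strand, so overlapping genes cannot be told apart. Subread 1.6.0, featureCounts, limma and mm10 are named in the submitters' processing notes; annotation and filters are not given in the sources used here. The authors deposited raw integer counts per gene and per-library tables of log2 FPKM, used as an alternative only.

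Entries without a symbol (958 of 27179, at most 0.306% of a mouse library's counts) and 261 immunoglobulin entries were set aside. The rest was scaled by TMM over the 10 mouse libraries (edgeR 4.0.16, R 4.3.3) to CPM. Genes with 10 CPM in the splenic mean or in marrow were compared on log2(CPM + 1), and called when both splenic libraries were at least 4-fold from marrow, with no test. edgeR (quasi-likelihood, 6 mouse groups, filterByExpr with a minimum count of 10, Benjamini-Hochberg) and DESeq2 1.42.0 gave p-values, which measure only the spread between these samples. Splenic libraries differed by more than counting error (chi-square per degree of freedom 64.2). Folds against 0 are bounds from a floor of 3 counts, per splenic pair or marrow library, and cover counting error only. Positions are from RefSeq on mm10.

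Members and gene lists (28, and 12 of markers) were chosen with earlier results of these data known. Irf4, the 12 highest and 12 lowest genes by the splenic library nearer marrow (higher side at 20 CPM or more, no markers), up to 4 genes per list and 3 per marker list were named by rule. Named after their values were seen were Bst2, Cd28, Cd74, Cxcr3, Cxcr4, Ddx58, Fcer2a, Fos, Hspa5, Irf9, Isg15, Jun, Mcl1, Oas1a, Relb, Tnfrsf13b and Zbp1. Pax5, Ms4a1, Sdc1, Slamf7, Tnfrsf17 and Xbp1 checked the labelled cell type.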

Additional observations from a re-analysis of the deposited data

How the results depend on the processing

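The counts of 81 genes at least 4-fold higher and 190 lower stayed within 1.5 times under library size alone, DESeq2's size factors, TMM with immunoglobulin genes, TMM over the 3 libraries, a pseudocount of 0.1 CPM and without marker genes (76 to 99 higher and 165 to 224 lower). They were 141 and 476 with a filter of 1 CPM or none, 21 and 87 with a pseudocount of 5 CPM and 361 and 587 at 2-fold. On the authors' log2 FPKM 124 were higher. Among genes with a count in all 3 libraries, a setting added after seeing the data, 65 were lower. Leaving out 1 splenic library gave 190 to 218 higher and 314 to 840 lower. Against 0 and 0 in the edgeR model, DESeq2 called 51 and 146, edgeR without a filter on low counts 1 and 16 and edgeR on the 3 libraries alone 0 and 2; library size alone, immunoglobulin genes kept and no cell lines gave 0 and 0. Leaving out 1 splenic library gave 0 to 1 higher and 0 to 11 lower, both upper values without library a; the cause was not tested. All 42 named genes that were 4-fold apart kept their direction under 9 other settings. The call needed 4-fold in the same direction in both splenic libraries. Leaving out 1 library could not reverse such a gene and rescaling could hardly do so, so the kept direction is no separate support. Scaling to library size alone turned the medians of 5 lists, among them G1 control and heat shock, all close to 0. Without library a the medians of adhesion, heat shock and ribosome biogenesis turned, and without library b those of surface and survival genes, homing and mitochondrially encoded genes. The mitosis median was -1.38 with a pseudocount of 5 CPM. A count of 0 allows up to 0.279 CPM over the splenic pair and 0.564 CPM in marrow. No paired analysis was possible because marrow has 1 library and the 2 splenic count columns share one name.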
